A study of Mus musculus with 8 samples.

Results

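Neat1 and Malat1, long noncoding RNAs that stay in the nucleus, and Gas5, Snhg1, Snhg8 and Snhg12, noncoding genes that carry small nucleolar RNAs (snoRNAs) in their introns, were followed across RNA-seq libraries of mouse splenic B cells. These 6 genes were found by symbol among 23302 entries of the authors' table of normalized counts, and all 6 were among the 13011 tested genes, which averaged 10 or more over all libraries. They were selected on values of these same libraries, so their levels and differences are given as a description with standard errors and without p-values. The libraries came from naive B cells of C57BL/6 spleens, in 4 groups of 2 libraries: BEBi3-/- mice with a tumor, BEBi3-/- mice without one, WT mice with a tumor and WT mice without one. The series concerns pancreatic cancer and the B cell cytokine subunit Ebi3. The sources used here give neither the age of the mice, nor the kind of tumor graft, nor how the BEBi3-/- allele was made. For nontumor mice the label of tumor status reads WT, and this was taken to mean tumor-free, which no label states. It is not stated in the labels that both libraries of each group are from different mice, so the errors and p-values cover only the spread between libraries, which may be technical.

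Neat1 is the scaffold of paraspeckles, nuclear bodies that hold back RNAs and RNA-binding proteins and that enlarge under stress. Malat1 is made next to it on the same chromosome and sits in nuclear speckles, which store splicing factors. The mature ends of Malat1 and of the long Neat1 isoform are not made by the usual polyadenylation: RNase P cuts at a tRNA-like structure, and a folded A-rich and U-rich tail protects the new end. The host genes work differently, since their introns are the product. Once spliced out, the introns are trimmed to snoRNAs that guide the modification of ribosomal RNA, while the spliced exons are mostly degraded by nonsense-mediated decay when ribosomes run along them. Gas5 was named for its accumulation in cells whose growth is arrested.

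Depth was between 21291892 and 28297319 reads per library. Among the 48 member values the lowest rested on 166 reads and the highest on 28013. Of the B cell markers, 8 of 10 were in the table, with 1.01% and 1.015% of reads in BEBi3-/- tumor, 0.893% and 0.835% in BEBi3-/- nontumor, 1.20% and 1.20% in WT tumor and 0.790% and 0.757% in WT nontumor. Of the markers of other cells, 12 macrophage genes held between 0.264% and 0.266% of reads in BEBi3-/- tumor, between 0.397% and 0.489% in BEBi3-/- nontumor, between 0.0503% and 0.0572% in WT tumor and between 0.431% and 0.466% in WT nontumor. In the same order 10 of 12 erythroid genes held 0.292% to 0.301%, 1.08% to 1.56%, 0.0887% to 0.119% and 0.624% to 0.677%. The 6 plasma cell genes held 0.217% in both BEBi3-/- tumor libraries against 0.102% to 0.113% in BEBi3-/- nontumor, and 0.0371% to 0.0433% in WT tumor against 0.132% to 0.146% in WT nontumor. The 10 granulocyte genes held 0.00325% to 0.00327% in BEBi3-/- tumor against 0.0167% to 0.0168% in BEBi3-/- nontumor, and 0.000677% to 0.00102% in WT tumor against 0.00821% to 0.0202% in WT nontumor. The T and NK cell and platelet lists held 0.0253% or less, with no marker of any list at 0 reads in a whole group. Ebi3 stood at 8.70 and 11.0 normalized counts in BEBi3-/- tumor against 201 and 164 in WT tumor. It stood at 12.8 and 11.5 in BEBi3-/- nontumor against 8.94 and 11.0 in WT nontumor. The nontumor groups were alike in Ebi3 and give no check of the deletion. In tumor mice the check rests on WT tumor, which also differs in the ways given next. The WT tumor libraries alone had Xist at 19758 and 26191 normalized counts and the Y-linked Eif2s3y, Kdm5d and Uty at 0, and their titles alone begin with IV. WT tumor therefore differs from every other group in sex and title prefix, and neither can be told apart from the tumor in WT, from the genotype in tumor mice or from the interaction.

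The ends of Malat1 and Neat1 are shown because they bear on how both RNAs enter a library made by poly(A) selection. From GENCODE vM21 on GRCm38, 110 bases of each transcript are given on the transcript strand up to the A-rich stretch, with the U-rich and A-rich stretches in capitals, as T and A in DNA letters.
Malat1-201: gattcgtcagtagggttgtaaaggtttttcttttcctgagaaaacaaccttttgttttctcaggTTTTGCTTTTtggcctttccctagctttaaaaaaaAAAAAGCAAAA
Neat1-201: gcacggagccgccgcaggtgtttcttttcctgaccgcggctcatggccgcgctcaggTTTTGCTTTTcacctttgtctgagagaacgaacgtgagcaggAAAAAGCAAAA
Both RNAs held the same pair of stretches, 4 T letters on each side of GC and 5 A letters, GC and 4 A letters. Of 141767 transcripts searched on their own strand, these 2 were the only ones with both stretches within their last 400 bases. The A-rich stretch alone lay within the last 60 bases of 0.0381% of transcripts. In the annotated Neat1-201 the transcript ends with it, whereas the annotated Malat1-201 runs on for another 292 bases.

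The starts of the host genes are shown because genes of the translation machinery often begin at a C followed by pyrimidines. From RefSeq on GRCm38, 60 bases before and 40 bases from the start are given on the transcript strand, with a TATA and the pyrimidine run in capitals.
Gas5 (chr1:161035106-161035205, plus strand, its second listed start): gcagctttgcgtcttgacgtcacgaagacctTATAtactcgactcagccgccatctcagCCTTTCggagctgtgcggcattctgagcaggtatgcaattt
Snhg8 (chr3:123508297-123508396, minus strand): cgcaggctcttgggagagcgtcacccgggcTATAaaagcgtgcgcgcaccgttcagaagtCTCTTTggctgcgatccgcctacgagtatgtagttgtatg
Snhg12 (chr4:132308618-132308717, plus strand): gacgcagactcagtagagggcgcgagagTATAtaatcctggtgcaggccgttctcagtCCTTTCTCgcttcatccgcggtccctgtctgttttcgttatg
Snhg1 (chr19:8723427-8723526, plus strand): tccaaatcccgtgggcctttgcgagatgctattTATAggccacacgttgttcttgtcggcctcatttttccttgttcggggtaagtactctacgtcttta
The run was a C followed by at least 4 further C or T that begins within 5 bases of the start, and TATA was searched between 45 and 19 bases before it, both on the transcript strand. Gas5 at this start, Snhg8 and Snhg12 held both, and Snhg1 held TATA alone. The first listed Gas5 start and the Malat1 start held neither. Among all 32851 mouse starts given there, 18.4% held the run, 6.43% held TATA and 1.18% held both, while among 68 starts of ribosomal protein genes 44.1%, 8.82% and 7.35% did. A match is a description of letters and was not tested as a site.

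Neat1 (chr19:5824708-5845480, minus strand, GRCm38) had more reads with a tumor in both genotypes. It stood at 3989 and 3872 normalized counts in BEBi3-/- tumor against 1465.5 and 485 in BEBi3-/- nontumor. In WT the values were 7170.3 and 7891 with a tumor against 746 and 228 without. Every tumor library was above every nontumor library, and the WT tumor libraries were the highest. The log2 difference with a tumor was 2.22 (SE 0.567) in BEBi3-/- and 4.19 (SE 0.567) in WT, or 4.66-fold and 18.2-fold with 1 added to each value.

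The nontumor libraries of one genotype did not hold one Neat1 level. Replicate 1 was above replicate 2 by 1.59 on the log2 scale in BEBi3-/- nontumor and by 1.71 in WT nontumor. Only 1.60% and 1.04% of tested genes were as far apart between the same libraries. In the tumor groups the replicates differed by 0.04 in BEBi3-/- and by 0.14 in WT, where replicate 2 was the higher. The size of the tumor difference therefore depended on the nontumor library kept: without BEBi3-/- nontumor replicate 2 it was 1.42 and without replicate 1 it was 3.02. In WT it was 3.33 without WT nontumor replicate 2 and 5.04 without replicate 1.

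Malat1 (chr19:5795690-5802672, minus strand) showed the same order of groups. Its normalized counts were 6891 and 6929.5 in BEBi3-/- tumor against 4879.5 and 1539.6 in BEBi3-/- nontumor, and 18041 and 22032 in WT tumor against 2782.5 and 936 in WT nontumor. WT tumor was far above the rest, and the lower BEBi3-/- tumor library was still above the higher BEBi3-/- nontumor library. The log2 difference with a tumor was 1.33 (SE 0.558) in BEBi3-/- and 3.63 (SE 0.558) in WT. As with Neat1, replicate 1 lay above replicate 2 in both nontumor groups, by 1.66 in BEBi3-/- and 1.57 in WT. Without BEBi3-/- nontumor replicate 2 the BEBi3-/- difference was 0.50, and without replicate 1 it was 2.17. The WT difference was 2.84 without WT nontumor replicate 2 and 4.41 without replicate 1.

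Both nuclear RNAs were lower in BEBi3-/- tumor than in WT tumor, with no overlap between the groups. The log2 difference was -1.53 (SE 0.558) for Malat1. It was -0.94 (SE 0.567) for Neat1. Log2 values depended on transcript length and GC content within a library (the length and GC trend). With that trend taken out, the Neat1 difference turned to 0.20. Each gene entered the trend with its longest annotated transcript, 20771 bases for Neat1. Between the nontumor groups both RNAs overlapped, with differences of 1.03 for Neat1 and 0.76 for Malat1 and the same SEs. Each SE pools the replicate spread of all 4 groups, and for both RNAs the nontumor replicates made up most of that spread. The SEs are those of limma, which also draws them toward the spread of other genes at a like level. The pooled SD between replicates of the gene alone was 0.827 for Neat1 and 0.8155 for Malat1. For a difference of 2 against 2 libraries that SD would be the SE without limma's adjustment, so the SEs given are the smaller. The log2 difference with a tumor was smaller for Malat1 than for Neat1 in both genotypes, but in WT the order turned round, to 2.78 for Malat1 and 2.40 for Neat1, with that trend taken out. The ratio of Malat1 to Neat1 counts was 1.73 and 1.79 in BEBi3-/- tumor against 3.33 and 3.17 in BEBi3-/- nontumor, and 2.52 and 2.79 in WT tumor against 3.73 and 4.11 in WT nontumor. These ratios are not per length and serve only to compare libraries. All 4 groups lay apart from each other on this ratio, BEBi3-/- tumor lowest and WT nontumor highest.

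**Figure D1:**
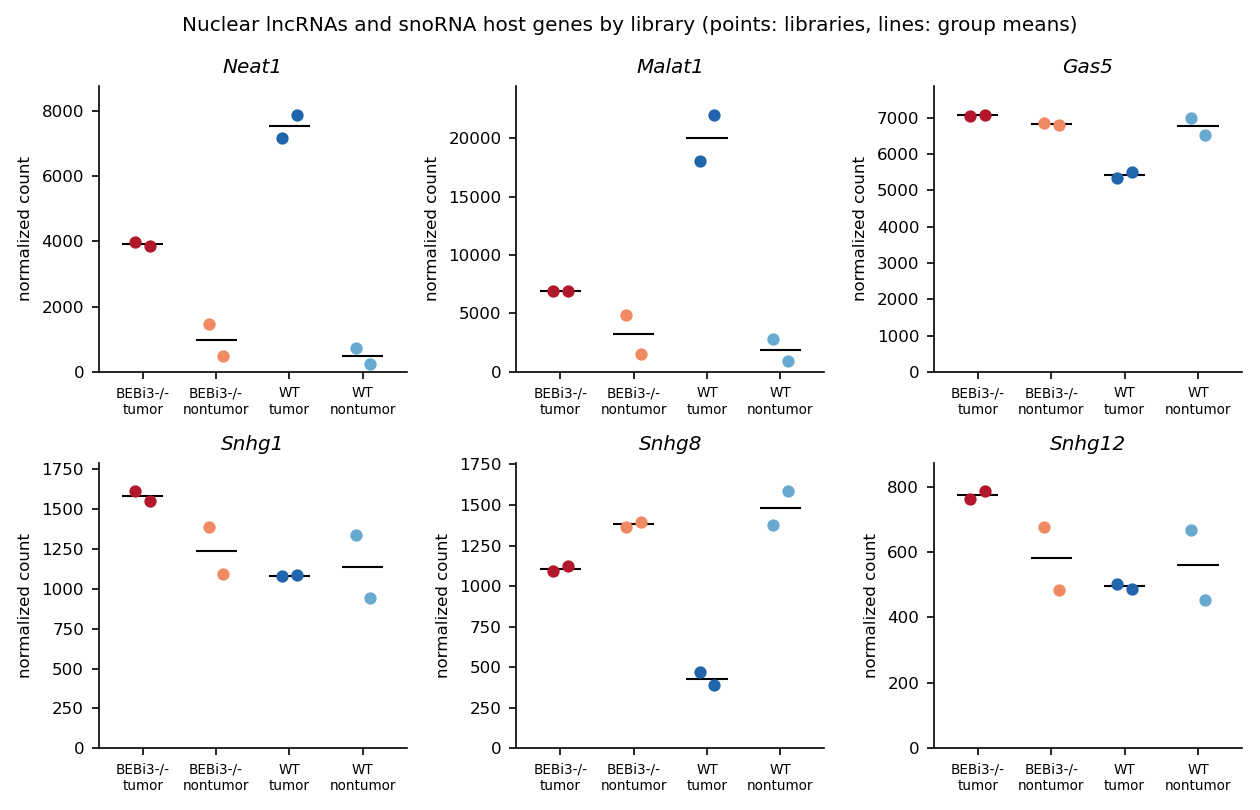
Normalized counts (vertical axis, linear, from 0) of the 6 genes in the 8 libraries, with BEBi3-/- tumor and nontumor left of WT tumor and nontumor. Points are libraries and lines are group means. Neat1 and Malat1 are highest in WT tumor and spread widely between the nontumor replicates, Gas5 lies between 5340.0 and 7093 in all libraries, and Snhg8 is lowest in WT tumor at 471 and 388.

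Gas5 (chr1:161034601-161038539, plus strand) was the steadiest of the 6. It stood at 7067 and 7093 normalized counts in BEBi3-/- tumor against 6874 and 6818 in BEBi3-/- nontumor. In WT it had 5340.0 and 5505.5 with a tumor against 7008 and 6537 without. The WT tumor libraries were the lowest of the 8, the other 6 lay close together, and the highest library was 1.33 times the lowest. The log2 difference with a tumor was 0.05 (SE 0.0666) in BEBi3-/- and -0.32 (SE 0.0666) in WT, and it was 0.38 in BEBi3-/- tumor against WT tumor. The direction in WT and that between the tumor groups turned round, to 0.62 and -0.37, once the length and GC trend of the libraries was taken out.

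Snhg8 (chr3:123507552-123508336, minus strand) was the host gene with the widest range. Its normalized counts were 1091 and 1122 in BEBi3-/- tumor against 1367 and 1394 in BEBi3-/- nontumor, and 471 and 388 in WT tumor against 1379.5 and 1586 in WT nontumor. Both tumor groups were below their nontumor group, and WT tumor was the lowest of all by a wide margin. The log2 difference with a tumor was -0.32 (SE 0.110) in BEBi3-/- and -1.79 (SE 0.110) in WT, which is 0.289 of the nontumor level. BEBi3-/- tumor was 1.37 above WT tumor, and without overlap. With the length and GC trend removed these differences kept their signs at -0.25, -1.02 and 0.68.

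Snhg1 (chr19:8723487-8726326, plus strand) and Snhg12 (chr4:132308678-132311024, plus strand) shared a profile. Snhg1 had 1614 and 1549 normalized counts in BEBi3-/- tumor against 1386 and 1093 in BEBi3-/- nontumor, and 1079 and 1088.5 in WT tumor against 1339 and 941 in WT nontumor. Snhg12 had 762 and 786 in BEBi3-/- tumor against 677 and 485 in BEBi3-/- nontumor, and 503 and 486 in WT tumor against 669 and 454 in WT nontumor. For both genes BEBi3-/- tumor was the highest group, the WT groups overlapped, and replicate 1 exceeded replicate 2 in each nontumor group. With a tumor the log2 difference was 0.36 (SE 0.163) for Snhg1 and 0.43 (SE 0.195) for Snhg12 in BEBi3-/-, against -0.05 and -0.16 in WT. Between the tumor groups BEBi3-/- was higher by 0.54 for Snhg1 and 0.65 for Snhg12. With that trend taken out the WT tumor differences were 0.73 and 0.56, and the differences between the tumor groups were -0.07 and 0.20.

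Counts of Snhg1 stood to those of Snhg12 at between 1.97 and 2.25 in all 8 libraries, although the genes lie on different chromosomes. The ratio of Gas5 to Snhg8 counts was 6.48 and 6.32 in BEBi3-/- tumor against 5.03 and 4.89 in BEBi3-/- nontumor, and 11.3 and 14.2 in WT tumor against 5.08 and 4.12 in WT nontumor. The first pair thus kept its proportion and the second did not, with WT tumor standing apart. These are ratios of counts that are not per length.

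**Figure D2:**
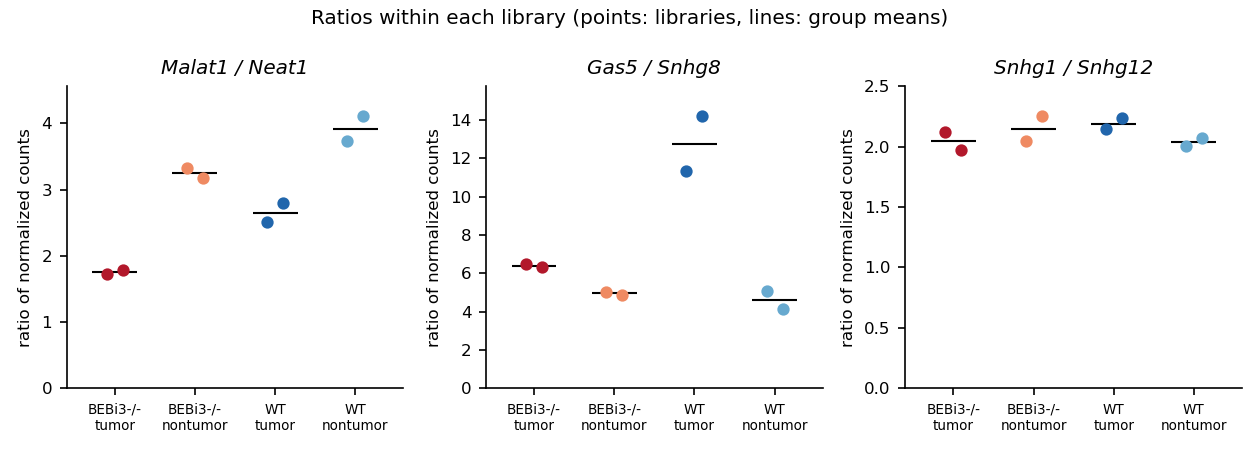
Ratios of normalized counts within each library (vertical axes, from 0) for Malat1 to Neat1, Gas5 to Snhg8 and Snhg1 to Snhg12. Points are libraries and lines are group means of the 4 groups. The Snhg1 to Snhg12 ratio stays between 1.97 and 2.25, while Gas5 to Snhg8 reaches 11.3 and 14.2 in WT tumor.

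Across the comparisons, the groups did not overlap for all 6 genes with a tumor in BEBi3-/- mice, 5 higher and 1 lower. Of all tested genes 36.6% were higher and 39% lower without overlap there. With a tumor in WT, 2 were higher and 2 lower, against 45.8% and 45.6% of all tested genes. In BEBi3-/- tumor against WT tumor 4 were higher and 2 lower, against 44.2% and 44.7%. In BEBi3-/- nontumor against WT nontumor all 6 overlapped, where 15.8% of tested genes were higher and 16.1% lower without overlap. Since the genes were chosen on these comparisons, nothing is read from the counts. The interaction, the tumor difference in BEBi3-/- minus that in WT, was -1.97 (SE 0.801) for Neat1, -2.29 (SE 0.790) for Malat1, 0.37 (SE 0.0941) for Gas5, 0.41 (SE 0.231) for Snhg1, 1.47 (SE 0.155) for Snhg8 and 0.59 (SE 0.276) for Snhg12. With the length and GC trend taken out, the interaction turned to -0.43 for Gas5 and -0.26 for Snhg1, and the other 4 genes kept their sign.

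Transcript length ran with these comparisons, and the 6 genes sit near its extremes. By their longest GENCODE basic transcript, Neat1 at 20771 bases exceeded 99.9% of tested genes and Malat1 at 6983 bases 92.1%. Gas5 at 665 bases, Snhg1 at 709 and Snhg8 at 528 exceeded only 1.87%, 2.32% and 1.06%, and Snhg12 at 1416 bases 13.9%. The median over the basic transcripts was 2017 bases for Neat1 and 606 for Malat1. Trend removal used the longest transcripts, and none was run with other lengths. Across 12868 genes the log2 difference correlated with length at a Spearman rho of 0.26 for the tumor in BEBi3-/-, 0.45 for the tumor in WT and -0.52 for BEBi3-/- tumor against WT tumor. For BEBi3-/- nontumor against WT nontumor it was 0.28. Between replicates 1 and 2 of the same group it was 0.03 in BEBi3-/- tumor, 0.12 in BEBi3-/- nontumor, -0.37 in WT tumor and 0.34 in WT nontumor. These are correlations across genes of the same libraries, which are not independent. With the trend on length and GC content removed, Neat1 stood at 1.78 and Malat1 at 1.17 with a tumor in BEBi3-/-, and at 2.40 and 2.78 in WT. Between the tumor groups Neat1 then turned to 0.20 while Malat1 stayed lower in BEBi3-/-, at -0.94. In these bulk libraries fewer cells of a type and less RNA per cell cannot be told apart. The macrophage, erythroid and granulocyte markers given above were lower in both tumor groups, lowest in WT tumor. The plasma cell markers were higher in BEBi3-/- tumor and lower in WT tumor than in their nontumor groups. The part of these markers in the differences of the 6 genes was not tested.

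**Figure D3:**
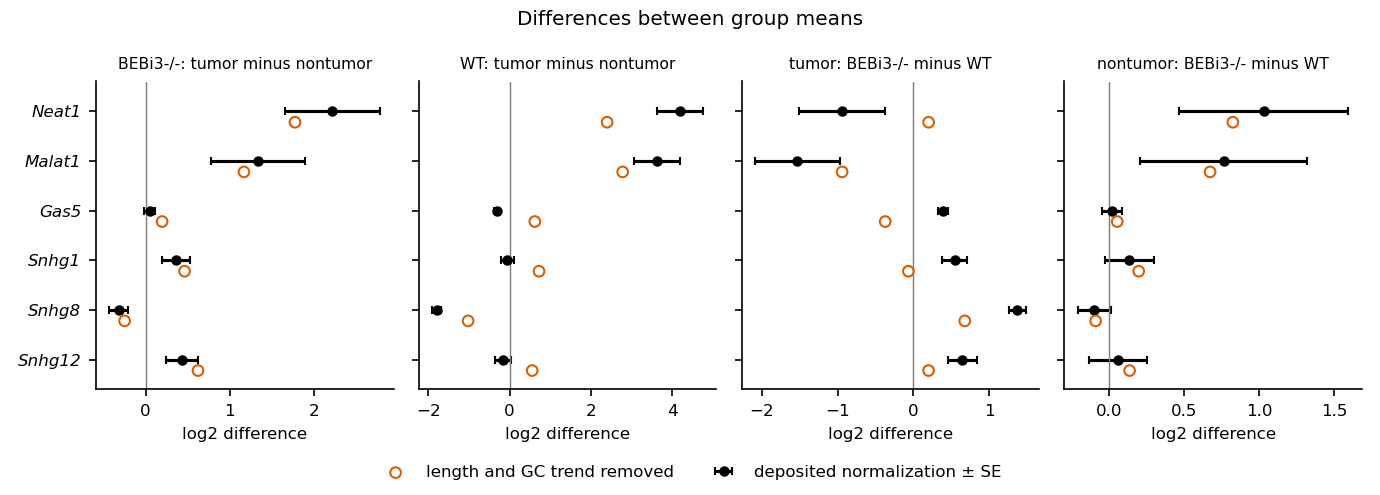
Log2 differences of the 6 genes (horizontal axes, each panel with its own scale) in 4 comparisons, from top Neat1 to bottom Snhg12. Black points are differences of group means on deposited normalized counts with SE bars, and open orange points the same with the length and GC trend removed. Neat1 and Malat1 stay above 0 with a tumor under both, while Gas5 in WT is at -0.32 and, with the trend removed, at 0.62.

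The snoRNAs inside the host genes were counted in the same table for 7 of the 21 annotated within them. They were Snord47 in Gas5, Snord22 in Snhg1, Snora24 in Snhg8, and Snora16a, Snora44, Snora61 and Snord99 in Snhg12. Snora24 was at 0 in every library. From GENCODE vM21 on GRCm38, the C/D snoRNAs among them are shown because their counts follow, with the C box TGATGA and the D box CTGA in capitals where found on the transcript strand.
Snord47: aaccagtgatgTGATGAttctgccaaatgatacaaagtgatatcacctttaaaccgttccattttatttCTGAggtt
Snord22: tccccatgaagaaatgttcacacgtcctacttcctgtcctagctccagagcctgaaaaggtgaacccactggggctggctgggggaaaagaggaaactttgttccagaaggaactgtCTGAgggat
Snord99: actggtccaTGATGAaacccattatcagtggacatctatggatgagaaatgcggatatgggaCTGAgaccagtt
The C box was searched in the first 20 bases and the D box in the last 20, and 68.7% of 99 annotated Snord transcripts held both.

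Counts at the snoRNA genes were higher with a tumor relative to those of their hosts. Snord22 had 154 and 159 normalized counts in BEBi3-/- tumor against 67.7 and 34.4 in BEBi3-/- nontumor, a rise of 1.68 on the log2 scale (limma adjusted p = 0.0278). In WT it had 67.5 and 72.4 with a tumor against 60.4 and 20.6 without, a difference of 0.96 that did not pass (limma adjusted p = 0.084). The tumor libraries lay above the nontumor ones in both genotypes, by little in WT. Per 100 counts of Snhg1 this came to 9.54 and 10.3 in BEBi3-/- tumor against 4.88 and 3.15 in BEBi3-/- nontumor, and to 6.25 and 6.65 in WT tumor against 4.51 and 2.19 in WT nontumor.

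The 4 snoRNA genes of Snhg12 together had 24.9 and 19.8 counts per 100 of their host in BEBi3-/- tumor against 14.9 and 13.1 in BEBi3-/- nontumor. In WT they had 15.5 and 22.01 with a tumor against 6.35 and 4.83 without. Snord47 per 100 counts of Gas5 was at 0.862 and 1.05 in BEBi3-/- tumor against 0.520 and 0.430 in BEBi3-/- nontumor, and at 0.580 and 0.629 in WT tumor against 0.383 and 0.210 in WT nontumor. For all 3 hosts the tumor libraries were above the nontumor libraries within each genotype. The share of other gene pairs with such an order was not computed. In WT nontumor the snoRNA counts were low, at 42.5 and 21.9 summed for Snhg12 and 26.8 and 13.7 for Snord47.

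Of the 6 snoRNA genes tested, 2 rose with a tumor in BEBi3-/- (Snord22 and Snord47, by 1.68 and 1.03) and 3 rose in WT (Snora16a by 1.87, Snora61 by 1.96 and Snord99 by 1.03, limma adjusted p = 0.00199, 0.00854 and 0.0179). None fell in either, and the medians were 1.11 and 1.01. The WT rises start from low WT nontumor counts: 8.94 and 6.86 for Snora16a, 11.2 and 2.74 for Snora61 and 8.94 and 8.23 for Snord99. Of all 13011 tested genes 32.6% were called in BEBi3-/- and 79.8% in WT. In WT, Snord99 turned to -0.24 with the length and GC trend removed, and Snord47 in BEBi3-/- turned to -0.07. Mature snoRNAs lack a poly(A) tail and are short, and reads from an unspliced host cannot be told apart from those of the snoRNA.

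**Figure D4:**
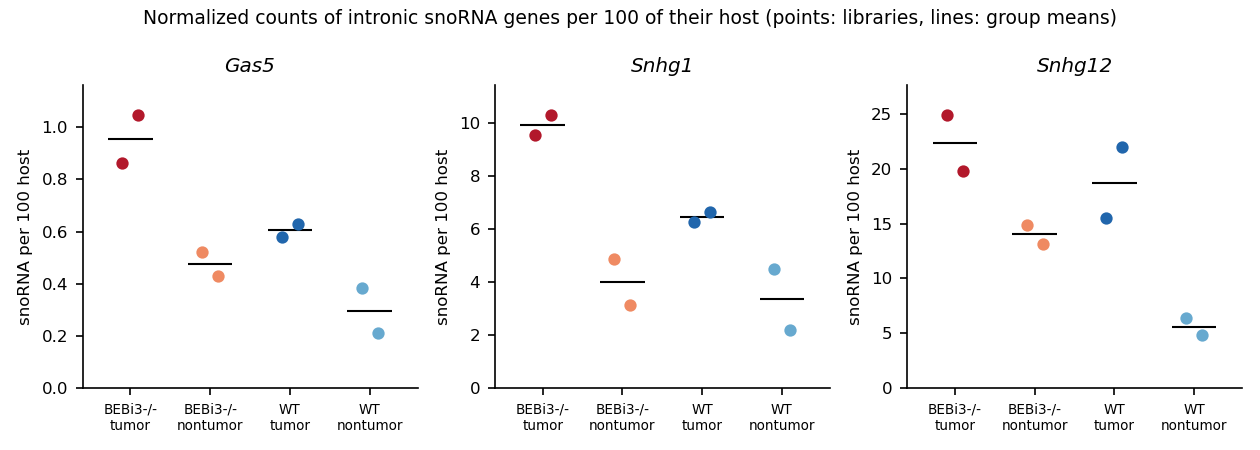
Summed normalized counts of the annotated intronic snoRNA genes per 100 normalized counts of the host gene (vertical axes, from 0, different scales) in the 8 libraries. Points are libraries and lines are group means. For Gas5, Snhg1 and Snhg12 both tumor libraries lie above both nontumor libraries in each genotype, and BEBi3-/- tumor has the highest group mean.

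The other noncoding snoRNA host genes went both ways. Of 15 tested, 5 rose and 2 fell with a tumor in BEBi3-/-, with a median log2 difference of 0.48, where 1841 of all tested genes rose and 2401 fell and their median was -0.01. In WT 7 rose and 7 fell, with a median of 0.18, where 5157 of all rose and 5221 fell and their median was 0.01. Between BEBi3-/- tumor and WT tumor 5 were higher and 3 lower, where 60.5% of all were called, and in the interaction 4 were higher and 2 lower, where 52.9% were called. With BEBi3-/- tumor replicate 1, BEBi3-/- tumor replicate 2 or BEBi3-/- nontumor replicate 2 left out, 0 of the 15 were called for the tumor in BEBi3-/-. With the length and GC trend taken out, only 1 of 13 with a known length was called between the tumor groups.

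Zfas1 (1500012F01Rik in the table), a host of C/D snoRNAs, had 2721 and 2709 normalized counts in BEBi3-/- tumor against 3494.5 and 3740.0 in BEBi3-/- nontumor. It had 1426 and 1301 in WT tumor against 4133 and 3517 in WT nontumor. Each tumor group was below its nontumor group, and WT tumor was the lowest, the pattern described for Snhg8. It fell by 0.41 in BEBi3-/- (limma adjusted p = 0.0141) and by 1.48 in WT (limma adjusted p = 2.08e-06). Snhg6 fell by 1.05 and Epb41l4aos (2410004N09Rik) by 1.25 in WT, with limma adjusted p = 1.64e-05 and 3.21e-05, and their differences in BEBi3-/-, 0.08 and -0.13, did not pass.

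Other hosts rose, as Neat1 and Malat1 were higher. Snhg17 (9430008C03Rik) had 396 and 391 normalized counts in BEBi3-/- tumor against 252 and 145 in BEBi3-/- nontumor, and 613 and 657 in WT tumor against 181 and 129 in WT nontumor. It rose by 1.04 in BEBi3-/- (limma adjusted p = 0.017) and by 2.05 in WT (limma adjusted p = 6.5e-05), with replicate 1 above replicate 2 in both nontumor groups. Snhg5 rose in both as well, by 0.73 (limma adjusted p = 0.0111) and 0.60 (limma adjusted p = 0.00541).

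**Figure D5:**
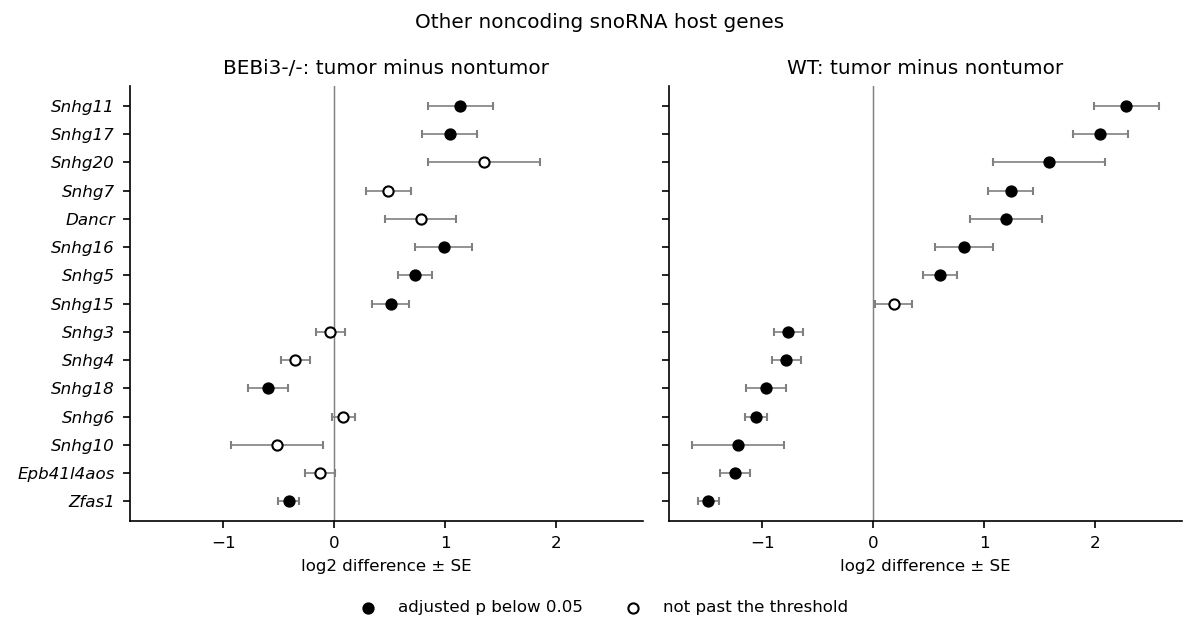
Log2 differences with SE bars for 15 other noncoding snoRNA host genes with a tumor, in BEBi3-/- (left) and WT (right), ordered by the WT value. Filled points passed an adjusted p of 0.05 in limma across all tested genes. In WT 7 are higher and 7 lower past the threshold, and in BEBi3-/- 5 and 2.

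Between BEBi3-/- nontumor and WT nontumor none of the 15 host genes and 6 snoRNA genes was called in limma, and of all 13011 genes 0% were. In that comparison 1049 genes had an unadjusted p below 0.05 in limma, edgeR called 0 and DESeq2 called 21. The 4 snoRNA genes Snord47, Snord99, Snora61 and Snora16a were higher in both BEBi3-/- nontumor libraries than in both WT nontumor libraries, by 0.72 to 1.66 on the log2 scale, without passing. Of all tested genes 15.8% were higher without overlap in that comparison. The WT nontumor counts of these 4 snoRNA genes were low, between 2.74 and 26.8.

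Proteins that build or use these RNAs were read from lists, and each list's counts of calls stand against 32.6% of all tested genes called for the tumor in BEBi3-/- and 79.8% in WT. Of 19 nuclear speckle proteins, the compartment of Malat1, 12 rose and 0 fell with a tumor in BEBi3-/- (median 0.45), and 14 rose and 3 fell in WT (median 0.71). The 17 called in WT are near the share of all genes. Srrm2, a scaffold of speckles, had 7462 and 7265 normalized counts in BEBi3-/- tumor against 5213 and 3126 in BEBi3-/- nontumor, and 21779 and 26171 in WT tumor against 3775 and 2292 in WT nontumor. It followed the order of Malat1 through the groups, nontumor replicates included, and rose by 3.02 in WT (limma adjusted p = 1.03e-05). Son, the other speckle scaffold, rose by 2.01 in WT (limma adjusted p = 4.7e-06), and the kinase Clk4 by 1.07 in BEBi3-/- (limma adjusted p = 0.00687). With the length and GC trend removed, the counts were 12 higher and 0 lower in BEBi3-/-, and 15 higher and 2 lower in WT.

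Of 18 paraspeckle proteins, the partners of Neat1, 1 rose and 2 fell with a tumor in BEBi3-/- (median -0.04), and 8 rose and 6 fell in WT (median 0.08). The 14 called in WT are near the 79.8% of all genes, and the 3 called in BEBi3-/- are below 32.6%. Nudt21, a cleavage factor subunit whose partner Cpsf6 is on the same list, fell by 0.50 in BEBi3-/- (limma adjusted p = 0.0137) and by 1.23 in WT (limma adjusted p = 1.28e-05). Smarca4, a chromatin remodeler found in paraspeckles, rose by 0.73 in WT (limma adjusted p = 2.91e-05). Tardbp rose by 0.57 in WT (limma adjusted p = 8.45e-05), and was at -0.34 with the length and GC trend removed.

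Among 10 known inducers of Neat1 and their targets, 2 rose and 1 fell with a tumor in BEBi3-/- (median 0.11) and 5 rose and 3 fell in WT (median 0.29), near the 32.6% and 79.8% of all genes. Mdm2, a target of p53, had 1712 and 1712 normalized counts in BEBi3-/- tumor against 1292 and 1198 in BEBi3-/- nontumor, and 2269 and 2379 in WT tumor against 1167 and 1069 in WT nontumor. Its tumor libraries were above its nontumor libraries in both genotypes, and it rose by 0.46 and 1.06 (limma adjusted p = 0.00505 and 4.75e-06). Trp53 itself, the gene of p53, fell by 0.35 in BEBi3-/- (limma adjusted p = 0.0164). Hsf1, the heat shock factor, rose there by 0.39 (limma adjusted p = 0.0146).

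Of 19 proteins and assembly factors of snoRNPs, the particles that snoRNAs work in, 1 rose and 8 fell in BEBi3-/- (median -0.28) and 3 rose and 12 fell in WT (median -0.80). Of all tested genes 1841 rose and 2401 fell in BEBi3-/-, and 5157 rose and 5221 fell in WT. With the length and GC trend removed, 1 of the 19 was higher and 3 lower in BEBi3-/-, and 3 were higher and 9 lower in WT. Fbl, the methyltransferase of C/D snoRNPs, fell by 0.42 in BEBi3-/- (limma adjusted p = 0.0176) and by 1.23 in WT (limma adjusted p = 7.73e-06). Nop10 and Nhp2, core proteins of H/ACA snoRNPs, fell in WT, at -1.51 and -1.81 (limma adjusted p = 3.35e-06 and 6.85e-06). Of 79 ribosomal protein genes, 69 fell with a tumor in BEBi3-/- (median -0.45) and 79 fell in WT (median -1.80), with 0 rises in either, but under quantile normalization 3 fell and 1 rose in BEBi3-/- and 68 fell and 4 rose in WT. All 79 were higher in BEBi3-/- tumor than in WT tumor (median 1.14), as the 4 host genes were. Under quantile normalization 66 of the 79 were higher and 1 lower there. With the length and GC trend removed, the host genes Gas5 and Snhg1 turned to -0.37 and -0.07 between the tumor groups.

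Nonsense-mediated decay degrades the spliced host transcripts. Of 16 of its factors, 4 rose and 2 fell with a tumor in BEBi3-/- (median 0.17), and 9 rose and 5 fell in WT (median 0.56), near the 32.6% and 79.8% called among all genes. The decay factor Smg6 rose by 1.04 in WT (limma adjusted p = 1.13e-05). Magoh, a core protein of the exon junction complex, fell by 1.10 (limma adjusted p = 1.33e-05). Among 15 protein-coding snoRNA hosts, 4 rose and 4 fell in BEBi3-/- (median -0.01) and 7 rose and 5 fell in WT (median 0.10). Tpt1 and Gnb2l1, abundant hosts, fell by 1.43 and 1.66 in WT (limma adjusted p = 7.59e-06 and 3.59e-06).

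Of 15 other long noncoding RNAs tested, 4 rose and 0 fell with a tumor in BEBi3-/- (median 0.57), and 9 rose and 2 fell in WT (median 1.37), shares at or below the 32.6% and 79.8% called among all genes. Tug1 had 4127 and 4023 normalized counts in BEBi3-/- tumor against 2706 and 2768 in BEBi3-/- nontumor, and 7115.5 and 7461 in WT tumor against 2979 and 2442 in WT nontumor. It rose by 0.57 and 1.43 (limma adjusted p = 0.00418 and 2.64e-06), and unlike Neat1 its nontumor replicates lay close together. Kcnq1ot1, an imprinted antisense RNA, rose by 1.05 and 3.16 (limma adjusted p = 0.0111 and 3.36e-06), and turned to -0.11 and -0.37 with the length and GC trend removed. Ftx, which lies in the X-inactivation center, rose by 0.54 in BEBi3-/- (limma adjusted p = 0.0257) and by 1.37 in WT (limma adjusted p = 2.96e-05), and in WT this comparison also sets libraries with Xist against libraries without.

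The genes next to the 6 were read for changes of the whole neighborhood. Frmd8, whose annotated gene ends 4222 bases from Neat1 on chromosome 19, had a log2 difference with a tumor of -0.07 in BEBi3-/- (limma adjusted p = 0.566) and fell by 0.30 in WT (limma adjusted p = 0.016). Its means with a tumor were not above those without, whereas those of Neat1 and Malat1 were.

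Zbtb37 starts 248 bases from Gas5 on the opposite strand and overlaps it. It averaged 121 normalized counts in BEBi3-/- tumor and 114 in BEBi3-/- nontumor, and 489 in WT tumor and 91.4 in WT nontumor. It rose by 2.41 in WT (limma adjusted p = 1.84e-05) while its difference in BEBi3-/- was 0.11 (limma adjusted p = 0.729), and the interaction was -2.30 (limma adjusted p = 0.000832). The library kit keeps the strand, but the counting setting is not given in the sources used here, so reads in the overlap may be shared. Slc3a2 starts 118 bases from Snhg1 on the opposite strand. It fell by 0.49 in WT (limma adjusted p = 0.000361), where Snhg1 was at -0.05 with overlapping groups. In BEBi3-/- its difference was 0.06 (limma adjusted p = 0.572), against 0.36 for Snhg1. Slc3a2 was 0.52 higher in BEBi3-/- tumor than in WT tumor (limma adjusted p = 0.000537), where Snhg1 was 0.54 higher. That Snhg1 difference turned to -0.07 with the length and GC trend removed. The interaction was 0.55 for Slc3a2 and 0.41 for Snhg1.

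Trnau1ap, which faces the end of Snhg12 from the other strand, fell by 1.10 in WT (limma adjusted p = 9.76e-06), and its difference in BEBi3-/- was -0.07 (limma adjusted p = 0.567). Prss12, on the opposite strand 955 bases from the end of Snhg8, averaged 134 normalized counts in BEBi3-/- tumor and 102 in BEBi3-/- nontumor, and 69.2 in WT tumor and 162 in WT nontumor. It fell by 1.22 in WT (limma adjusted p = 0.000122), as Snhg8 was lower there, and in BEBi3-/- its difference was 0.39 (limma adjusted p = 0.0914). Wdr74, beyond Snhg1, fell by 0.33 in WT (limma adjusted p = 0.00321) but stood at 0.64 with the length and GC trend removed.

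Profiles were compared by the root mean square difference of log2 values over the 8 libraries after centring each gene, a measure that only orders genes. Snhg12 was the nearest of all tested genes to Snhg1, and Snhg1 the nearest to Snhg12, at 0.0655. The next to Snhg1 were Galnt6 (0.0706) and Phyhd1 (0.0890), and the next to Snhg12 were Gem (0.116) and Galnt6 (0.120). Nearest to Gas5 were Uqcc (0.0252), Trappc6b (0.0297) and Gnptg (0.0329). Nearest to Snhg8 were Itgax (0.0502), Rabac1 (0.0511) and Snrpd2 (0.0536). The distances of the steady genes are small because such genes hardly move.

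Mir17hg (0.205), Leng8 (0.216) and Fcamr (0.216) were nearest to Malat1. Leng8 had 3127 and 3061 normalized counts in BEBi3-/- tumor against 2089 and 722 in BEBi3-/- nontumor, and 6459 and 7009 in WT tumor against 1245 and 494 in WT nontumor. Its nontumor replicates were split as those of Malat1 were, replicate 1 above replicate 2 in both genotypes. Nearest to Neat1 were Bzrap1 (0.289), Ankrd53 (0.300) and Ovgp1 (0.303). Malat1 came 15th in the order around Neat1, and Neat1 86th around Malat1, at a distance of 0.432.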

How the data were processed

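RNA was extracted with RNeasy Plus and made into stranded poly(A) TruSeq paired-end libraries, per the labels' protocols. Per the submitters' processing notes, the tools were Salmon and DESeq2 and the build was mm10. Their versions are not given in the sources here. Deposited values are normalized counts (a signal, unit of the authors' table), 1 per symbol and library. Divided by each library's step, 100% were whole reads within 0.01, which gave depth and allowed count tests. Of 23302 entries 5065 were at 0 in every library. The 13011 with a mean of at least 10 were fitted as log2(value + 1) with limma 3.58.1 in R 4.3.3, 1 mean per group over all 8 libraries, prior variance following the mean. Tests are two-sided, Benjamini-Hochberg adjusted over the tested genes, and called below 0.05. Means are given over 2 libraries. The scripts' fits were tested on simulated data, where few genes changed, in WT tumor alone, and no length trend was set. In these data most genes were called in WT, so that test cannot tell how the fits do here.

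The 6 genes, the lists and the tests were chosen with earlier results of these data known. Named were the 6 genes, in each list and comparison the 3 genes of smallest p (only part of them are printed, and some named genes are not reported here), the protein-coding neighbors and the 3 nearest profiles, passing over names of the Gm and Rik kind. Genes under an older symbol carry it in parentheses. Marker lists were B cell, plasma cell, erythroid, macrophage, granulocyte, T and NK cell, and platelet. The 2 BEBi3-/- tumor libraries differed at an unadjusted chi-square p below 0.05 in 8.4% of genes with at least 50 reads in the pair, against 36.8% to 47.5% in the other groups. They were kept as 2 and averaged in an alternative. Lengths, positions and transcripts came from GENCODE vM21, and gene starts from RefSeq, both on GRCm38, which is mm10. Lengths were known for 12868 genes (98.9%). The WT groups share title numbers 7 and 8, and the deviations of same-numbered libraries correlated across genes at -0.26, so the numbers were not taken as pairs. Alternatives were other pseudocounts (5 and 0.1), filters (none, a mean of at least 50), scalings (quantile, upper-quartile), no prior trend, a fit of the compared groups alone, leaving out each library, a replicate block, edgeR 4.0.16 and DESeq2 1.42.0 on recovered reads, removal of each library's length and GC trend, and averaging. Of these only the crossed block was added after the data were seen.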

Additional observations from a re-analysis of the deposited data

Results flagged for a closer look

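Gas5 differed without a test: with a tumor both BEBi3-/- libraries were above both nontumor libraries, and both WT libraries were below theirs, so that the effects differ by 0.37 on the log2 scale, BEBi3-/- minus WT. That difference between the effects turned to -0.43 with the length and GC trend removed. The Gas5 difference in BEBi3-/- was 0.05 (SE 0.0666), smaller than its SE from limma, and that in WT was -0.32 (SE 0.0666). The pooled SD between replicates of Gas5 alone was 0.039. Of all tested genes 36.6% were higher without overlap with a tumor in BEBi3-/-, and 45.6% were lower without overlap in WT.

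The following list genes differed in their tumor effect between the genotypes by the interaction in limma, given as the log2 effect in BEBi3-/- minus that in WT. At most the 3 of smallest p are named per list, and 52.9% of all tested genes were called. Noncoding hosts were called 4 higher and 2 lower, and protein-coding hosts 3 higher and 1 lower. Ribosomal protein genes were called 79 higher and 0 lower, and snoRNP genes 9 higher and 1 lower. Among noncoding snoRNA hosts these were Zfas1 (1500012F01Rik) at 1.07, Snhg6 at 1.13 and Epb41l4aos (2410004N09Rik) at 1.11, with limma adjusted p between 0.000451 and 0.00163. Among protein-coding hosts Gnb2l1 stood at 1.30, Tpt1 at 1.15 (-0.00839 under quantile normalization) and Eif4a1 at 0.53 (adjusted p between 0.000518 and 0.00528). The ribosomal protein genes Rps14, Rpl35 and Rpl26 stood at 1.88, 1.52 and 1.74 (0.000134 to 0.000172). The snoRNP genes Nop10, Pih1d1 and Nhp2l1 stood at 1.21, 1.05 and 0.82 (0.000451 to 0.00141).

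Of the decay factors Smg6 stood at -0.89 and Magoh at 0.85 (adjusted p = 0.000933 and 0.00156). The paraspeckle genes Tardbp and Smarca4 stood at -0.60 and -0.55, and Nudt21 at 0.73 (0.00169 to 0.0052), and Tardbp turned to 0.13 with the length and GC trend removed. The speckle genes Son, Srrm2 and Prpf38b stood at -1.40, -2.15 and -0.91 (0.00101 to 0.0111). The long noncoding RNAs Kcnq1ot1, Oip5os1 (1700020I14Rik) and Tug1 stood at -2.11, -1.18 and -0.86 (0.000901 to 0.00115), and Kcnq1ot1 turned to 0.26 with that trend removed. The stress genes Runx1, Mdm2 and Atf2 stood at -0.69, -0.60 and -0.58 (0.00185 to 0.00623). In these lists 3 decay factors were called higher and 8 lower, 1 paraspeckle gene higher and 6 lower, and 1 speckle gene higher and 7 lower. Long noncoding RNAs were called 2 higher and 5 lower, and stress genes 0 higher and 4 lower. For all of these genes the interaction also holds the sex and title prefix of the WT tumor libraries, which cannot be told apart from it.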

How the results depend on the processing

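Of 202 recomputed counts of calls 180 stayed within 1.5 times. Genes called for the tumor in BEBi3-/- (4242) fell to 2375 with no prior trend and to 736 with the BEBi3-/- tumor libraries averaged, and ranged from 756 to 5313 with a library left out. Noncoding snoRNA hosts called there (7) numbered 4 with no filter, 4 with no prior trend, 0 with averaging, and 0 to 9 with a library left out. BEBi3-/- nontumor against WT nontumor (0 genes) gave 21 in DESeq2 and 0 to 5 with a library left out. In BEBi3-/- tumor against WT tumor the 8 hosts called became 13 with only the compared libraries, 1 with the length and GC trend removed, 5 with averaging and 5 to 9 with a library left out. In the interaction the 6 hosts became 1 with the trend removed and 3 to 7 with a library left out. The title number as replicate block gave 9305 genes for the tumor in WT against 10378 without it, and changed no count of calls by over 1.5 times. The crossed block gave 10678.

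The length and GC trend removal reversed 17 values of genes that were called or, among the 6 genes, did not overlap between the groups. With a tumor in WT these were Gas5 0.62, Kcnq1ot1 -0.37, Snord99 -0.24, Tardbp -0.34 and Wdr74 0.64, and in BEBi3-/- Kcnq1ot1 -0.11 and Snord47 -0.0723. In BEBi3-/- tumor against WT tumor they were Cpsf6 0.17, Gas5 -0.37, Kcnq1ot1 0.16, Neat1 0.20, Snhg1 -0.0658, Tardbp 0.0530 and Wdr74 -0.32. In the interaction they were Kcnq1ot1 0.26, Tardbp 0.13 and Wdr74 -0.30. Outside these 17, the WT tumor differences of Snhg1 and Snhg12, whose groups overlapped, turned to 0.73 and 0.56, and the interactions of Gas5 and Snhg1 to -0.43 and -0.26. Without WT nontumor replicate 1 those of Snhg1 and Snhg12 in WT also turned, to 0.20 and 0.12. Tpt1 turned to -0.00839 in the interaction under quantile normalization. The cause was not tested. Of 2635 recomputed values of other named genes, 192 lost their call and 14 reversed. With 2 libraries a group, a lone library left in a group is assumed to vary like the others.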
